A study of Capsicum annuum and Capsicum annuum
Solanum lycopersicum with 48 samples.

Results

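LBD genes encode the LATERAL ORGAN BOUNDARIES DOMAIN proteins, a family of transcription factors found only in plants. The LBD genes described here carry that name in the study, as hubs of its graft networks or as orthologs of the cambium regulator LBD4. They are 6 genes, taken by identifier from the 63692 genes in the tables, 33604 of tomato and 30088 of pepper. Tomato contributed 2 of them, SlLBD18 (Solyc01g091420) and SlLBD4 (Solyc02g069440). Pepper contributed 4, CaLBD18 (CA01g11210), a pair of LBD4 orthologs (CA02g00820 and CA12g22480) and CaLBD25 (CA02g30000).

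The samples were graft junctions of seedlings of tomato (Solanum lycopersicum var. M82) and pepper (Capsicum annuum var. Big Dipper), which form an incompatible pair. Seedlings were grafted in 4 ways, tomato on tomato and pepper on pepper (the self-grafts), pepper as scion with tomato as stock (pepper:tomato), and the reverse (tomato:pepper). Harvests at 1, 3 and 5 DAG, days after grafting, gave 12 groups. With 4 libraries to a group there were 48, each made from the polyadenylated RNA of a single junction of a separate plant. There was no ungrafted group among these samples, and plants stood in the dark at first and returned to light between the 3 and 5 DAG harvests, so that light and time cannot be told apart. The tomato seedlings were younger than the pepper seedlings, having been sown later to match stem width. Tissue was taken from both sides of the cut, so a heterograft library mixes the RNA of 2 species.

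In Arabidopsis thaliana, LBD18 acts downstream of auxin response factors in lateral root formation and in callus, the mass of dividing cells that fills a wound. LBD4 acts in the vascular cambium of that species, the stem cell layer that forms xylem on its inner and phloem on its outer side, where it lies downstream of the homeobox factor WOX14 and the Dof factor TMO6. A graft heals through callus first and new vascular strands later, so these genes stand near both steps. These roles are known from A. thaliana and were not measured here.

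Expression is given in FPKM, fragments normalized for transcript length and for the mapped reads of the library. The tables hold 1 pooled FPKM for each gene and group, the authors' value, and none for the single libraries. No standard deviation is therefore given for any gene, and no test was made. The tables also carry fold changes and q-values of the authors' own comparisons, which are not used here. Whether neighbouring levels in an order differ beyond their spread cannot be said from the pooled values. Changes are given as the log2 ratio of FPKM + 1, the later group over the earlier one, which understates the change of genes at low FPKM. A gene is called higher or lower where that ratio passed 2-fold, and it entered a comparison where it reached 1 FPKM in at least 1 of the groups compared. Depth is unknown, since the tables hold no counts. In these whole junctions, fewer cells of a type and less RNA per cell cannot be told apart.

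The heterograft groups differed in how much of each species they held. Tomato genes made up 17.9% of the summed FPKM in pepper:tomato at 1 DAG and 23.1% at 5 DAG, but 51.7% in the group labelled pepper:tomato at 3 DAG. In tomato:pepper the tomato share was 59.5% at 1 DAG and 49.2% at 5 DAG, but 29.7% in the group labelled 3 DAG. Both 3 DAG heterograft groups thus had a share nearer to that of the other heterograft, and the cause was not tested. Each heterograft result at 3 DAG is given below as labelled and with the values of these 2 groups exchanged. Comparisons of 1 with 5 DAG do not use them.

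**Figure D1:**
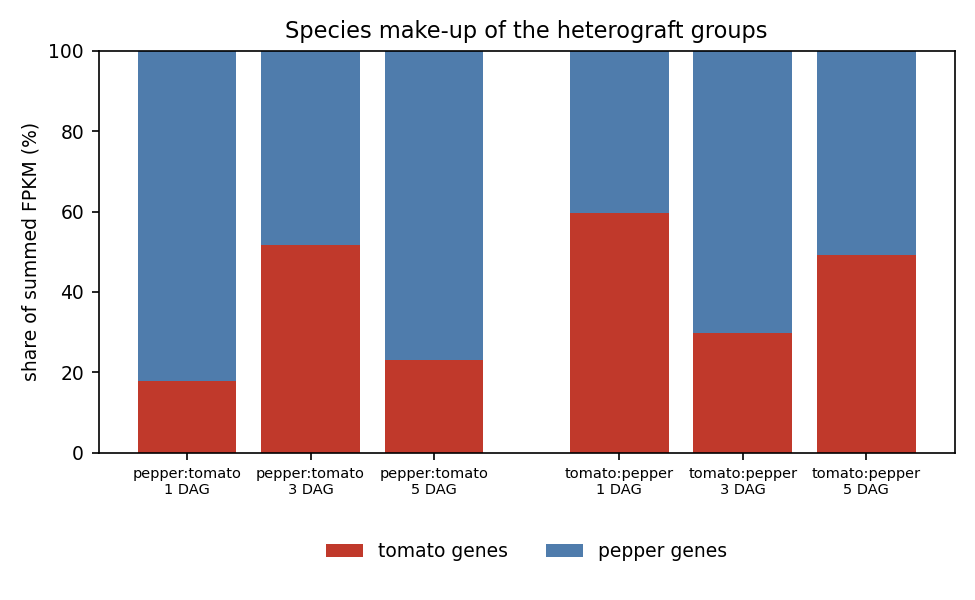
Stacked bars give the percent of summed FPKM that came from tomato genes (red) and pepper genes (blue) in the 6 heterograft groups, with 1 pooled value a group. The tomato share in the 3 DAG groups, 51.7% in pepper:tomato and 29.7% in tomato:pepper, lay outside the range of the 1 and 5 DAG groups of the same label.

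Both LBD18 orthologs were low at 1 DAG in their self-graft and highest at 3 DAG. SlLBD18 stood at 0.945 FPKM at 1 DAG, 3.94 FPKM at 3 DAG and 1.95 FPKM at 5 DAG in the tomato self-graft, a log2 ratio of 1.34 for 3 over 1 DAG. CaLBD18 stood at 2.23, 9.67 and 5.27 FPKM in the pepper self-graft, a log2 ratio of 1.72 for 3 over 1 DAG. At 5 over 1 DAG neither passed 2-fold, with log2 ratios of 0.60 for SlLBD18 and 0.96 for CaLBD18. Even at their highest these 2 genes were modest among the genes above 0 of their species, at percentile 44.2 for SlLBD18 and percentile 49.9 for CaLBD18 in the self-grafts at 3 DAG. The study picked both as hubs from genes that changed in these same samples, so their direction in the self-grafts is not independent evidence. The 3 over 1 DAG calls of both depended on the scaling. With each species' FPKM rescaled to the same sum in every group, the log2 ratios were 0.86 for SlLBD18 and 0.94 for CaLBD18, while centring on the species' median left both past 2-fold.

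SlLBD4 followed the same order of days as deposited, at 2.99 times the level of SlLBD18 in the 3 DAG tomato self-graft, where FPKM is already set per length. It stood at 2.17, 11.8 and 8.86 FPKM at 1, 3 and 5 DAG. Its log2 ratios were 2.01 for 3 over 1 DAG and 1.64 for 5 over 1 DAG, both past 2-fold, and from 3 to 5 DAG the ratio was −0.37. After rescaling that ratio was 0.17, so that the highest day of SlLBD4 moved from 3 to 5 DAG. Of the 2 tomato genes, 2 were thus higher at 3 than at 1 DAG, against 12.5% of all tomato genes tested, and 1 was higher at 5 than at 1 DAG, against 6.72%. None was lower, against 4.95% and 5.87%. Neither passed 2-fold between 3 and 5 DAG, as 11.4% of tomato genes did in either direction. SlLBD18 was picked by the study for changing in these samples, so an excess over these shares is not evidence for it.

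**Figure D2:**
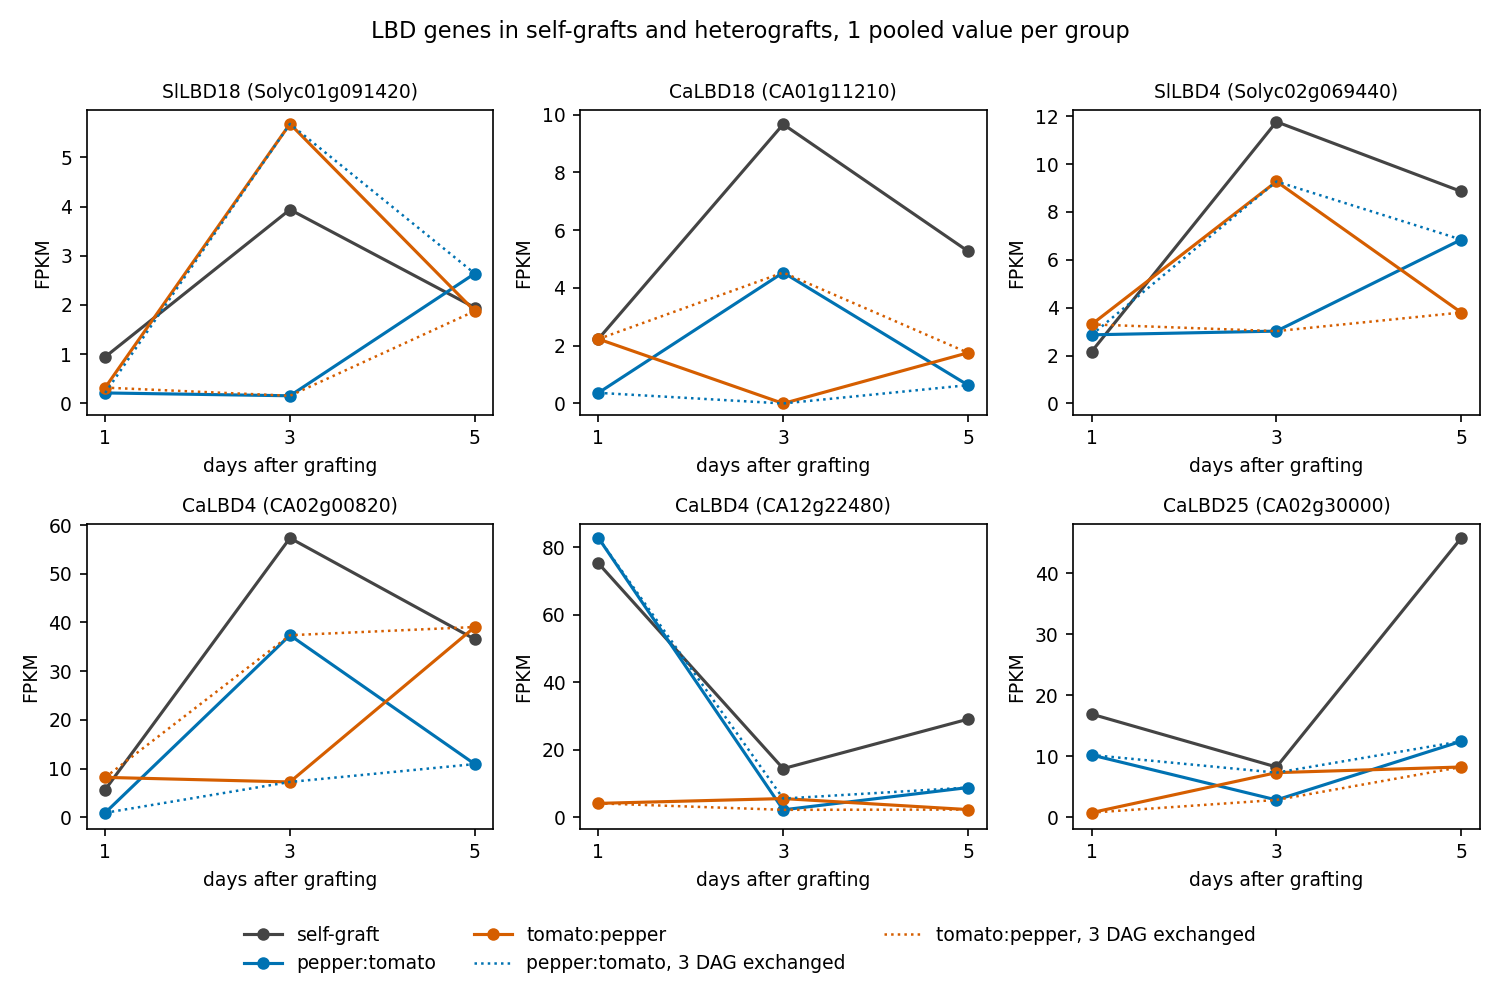
Each panel gives 1 LBD gene, with days after grafting on the horizontal axis and the pooled FPKM of each group on the vertical axis, for the self-graft (grey), pepper:tomato (blue) and tomato:pepper (orange). Dotted lines join the same heterograft values with the 2 groups at 3 DAG exchanged. In the self-grafts, SlLBD18, CaLBD18, SlLBD4 and CA02g00820 were highest at 3 DAG as deposited (SlLBD4 at 5 DAG after rescaling), CA12g22480 at 1 DAG and CaLBD25 at 5 DAG.

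The pepper LBD4 orthologs moved in opposite directions in the pepper self-graft. CA02g00820 stood at 5.70 FPKM at 1 DAG, 57.3 FPKM at 3 DAG and 36.6 FPKM at 5 DAG. Its log2 ratios were 3.12 for 3 over 1 DAG and 2.49 for 5 over 1 DAG. These were the largest upward ratios against 1 DAG among the 6 genes in the self-grafts, also after rescaling (2.28 and 2.21). CA12g22480 went from 75.2 FPKM at 1 DAG to 14.5 FPKM at 3 DAG and 29.1 FPKM at 5 DAG, log2 ratios of −2.30 and −1.34 against 1 DAG. After rescaling, its 3 over 1 DAG ratio was −2.99, larger in size than the 2.28 of CA02g00820. The more abundant ortholog thus changed within 2 days. At 1 DAG CA12g22480 stood 13.2 times higher than CA02g00820, whereas at 3 DAG CA02g00820 stood 3.96 times higher. By 5 DAG their ratio was 1.26. This comparison within a group does not depend on how the groups are scaled. CA02g00820 was itself a hub that the study picked from changed genes of this self-graft, while CA12g22480 is named there as an ortholog of the A. thaliana gene.

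CaLBD25 took yet another course. Its level was 16.9 FPKM at 1 DAG, 8.26 FPKM at 3 DAG and 45.7 FPKM at 5 DAG in the pepper self-graft. The log2 ratio was 2.34 for 5 over 3 DAG and 1.38 for 5 over 1 DAG, and −0.95 for 3 over 1 DAG, just short of 2-fold. After rescaling, the 3 over 1 DAG ratio was −1.59. It too was a hub picked from genes changed in these samples.

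Counted together as deposited, 2 of the 4 pepper genes passed 2-fold upward from 1 to 3 DAG and 1 downward, against 16.5% and 18.8% of pepper genes tested. This count turned on the scaling. After rescaling, CaLBD18 (0.94) no longer passed 2-fold upward and CaLBD25 (−1.59) passed it downward. At 5 over 1 DAG, 2 were higher and 1 lower, against 8.75% and 8.64%. At 5 over 3 DAG only CaLBD25 passed 2-fold as deposited, as 6% of pepper genes did upward, and after rescaling CA12g22480 passed it too (1.44). The study picked CaLBD18, CA02g00820 and CaLBD25 from genes that changed in this self-graft. An excess of these counts over the shares is therefore not evidence about LBD genes. Over the 3 intervals, 10 of 18 gene-by-interval pairs passed 2-fold in the self-grafts. No share over all genes was computed for this pooled count, and the shares given above are those of single intervals.

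From 1 to 5 DAG, where the doubtful groups play no part, CA02g00820 passed 2-fold upward in all 3 grafts that hold pepper tissue. It went from 0.955 to 11.0 FPKM in pepper:tomato and from 8.22 to 39.1 FPKM in tomato:pepper. The log2 ratios were 2.49 in the pepper self-graft, 2.61 in pepper:tomato and 2.12 in tomato:pepper. All 3 were past 2-fold under rescaling too. The order of the 3 grafts turned on the pseudocount. In the same order as above, the ratios were 2.66, 3.39 and 2.23 with 0.1 FPKM and 1.96, 1.42 and 1.74 with 5 FPKM. Without a pseudocount the folds were 6.42, 11.5 and 4.75. No value was at hand for the spread of the ratios of the 3 grafts, so it cannot be said that they are the same.

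CA12g22480 separated the heterografts. In pepper:tomato it went from 82.8 FPKM at 1 DAG to 8.85 FPKM at 5 DAG, a log2 ratio of −3.09 that was larger in size than the −1.34 of the self-graft. In tomato:pepper it stood at only 4.17 FPKM at 1 DAG and 2.33 FPKM at 5 DAG, a log2 ratio of −0.63. The pepper self-graft and pepper:tomato therefore shared the high level of this gene at 1 DAG, 75.2 and 82.8 FPKM, and tomato:pepper did not.

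CaLBD25 was higher at 5 than at 1 DAG in tomato:pepper, at 8.26 against 0.794 FPKM, a log2 ratio of 2.37. In pepper:tomato it stood at 10.2 FPKM at 1 DAG and 12.5 FPKM at 5 DAG, a log2 ratio of 0.26. The 45.7 FPKM of the 5 DAG self-graft was reached in neither heterograft, although levels of the self-graft and heterograft tables were normalized separately and the heterograft FPKM is spread over 2 species.

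CaLBD18 stayed within 2-fold between 1 and 5 DAG in both heterografts. It went from 2.23 to 1.75 FPKM in tomato:pepper, a log2 ratio of −0.23. In pepper:tomato its levels of 0.368 and 0.634 FPKM were both below the 1 FPKM minimum. Of the pepper genes, 1 was higher and 1 lower in pepper:tomato at 5 than at 1 DAG among the 3 that passed the minimum, against 4.82% and 8.01% of pepper genes. In tomato:pepper 2 of 4 were higher, against 13.2% of all pepper genes, and none was lower, for which no share is given.

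Among the tomato genes, SlLBD18 was higher at 5 than at 1 DAG in both heterografts. It went from 0.213 to 2.64 FPKM in pepper:tomato and from 0.322 to 1.88 FPKM in tomato:pepper, log2 ratios of 1.58 and 1.12, while the self-graft ratio was 0.60. With a pseudocount of 5 FPKM in place of 1, neither heterograft ratio passed 2-fold (0.55 and 0.37), since the levels are low. SlLBD4 went from 2.87 to 6.85 FPKM in pepper:tomato, a log2 ratio of 1.02 that was 0.82 after rescaling and 0.92 after centring. In tomato:pepper it went from 3.30 to 3.80 FPKM, a log2 ratio of 0.16. Both tomato genes were thus higher at 5 DAG in pepper:tomato, against 11.6% of tomato genes, and SlLBD18 alone in tomato:pepper, against 5.09%.

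**Figure D3:**
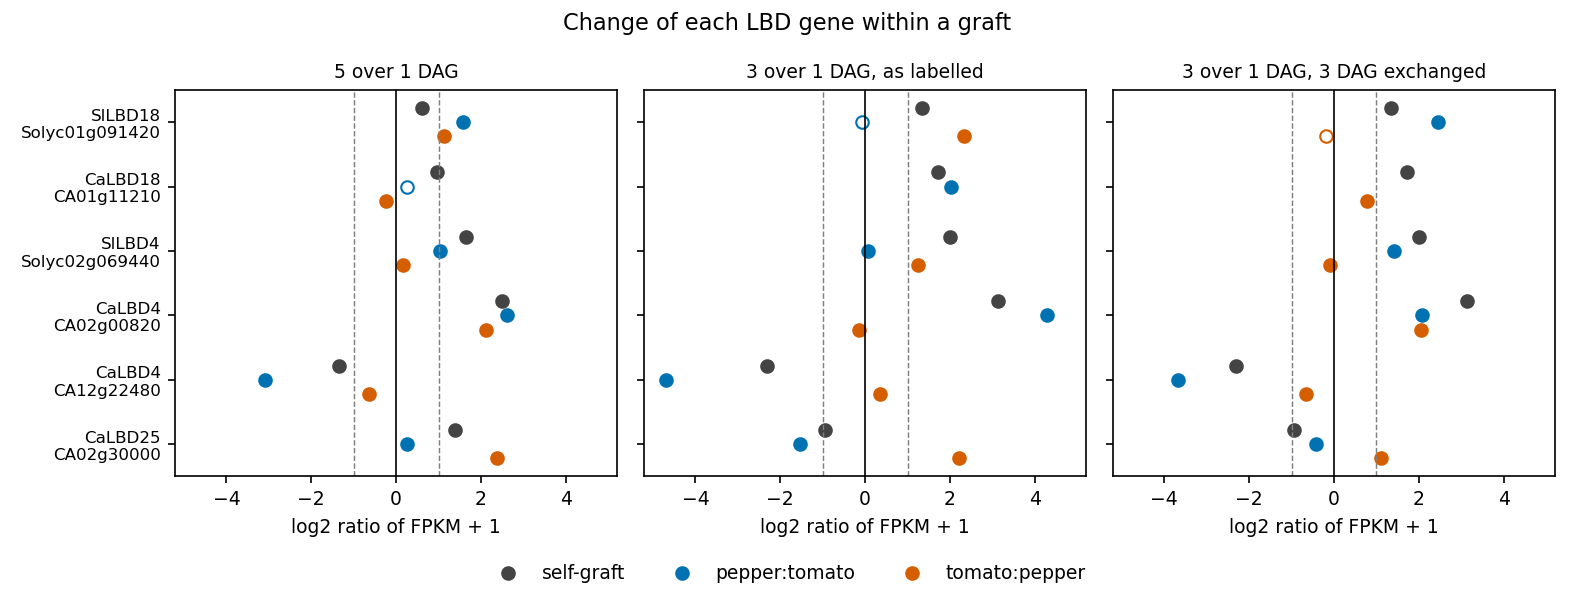
Points give the log2 ratio of FPKM + 1 of each LBD gene within the self-graft (grey), pepper:tomato (blue) and tomato:pepper (orange) for 5 over 1 DAG and, as labelled and with the 3 DAG heterograft groups exchanged, for 3 over 1 DAG. Dashed lines mark 2-fold, open points had less than 1 FPKM in both groups, and CaLBD18 has no point where it was listed at 0. CA02g00820 lay above 2-fold at 5 over 1 DAG in all 3 grafts, at 2.49, 2.61 and 2.12.

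At 3 DAG the heterograft values turned on the labels. As labelled, SlLBD18 stood at 0.156 FPKM in pepper:tomato and 5.68 FPKM in tomato:pepper, so that its 3 over 1 DAG log2 ratio was 2.34 in tomato:pepper and its level in pepper:tomato stayed below 1 FPKM. With the groups exchanged, the peak belonged to pepper:tomato, with a log2 ratio of 2.46. SlLBD4 stood at 3.02 FPKM in pepper:tomato and 9.27 FPKM in tomato:pepper as labelled. Its 3 over 1 DAG ratios were 0.06 and 1.26 as labelled, and 1.41 and −0.10 when exchanged. In pepper:tomato this turned on the scaling as well, since after rescaling the ratio of SlLBD4 was −1.69 as labelled, past 2-fold downward, and 0.42 when exchanged, no longer past 2-fold. Its 5 over 3 DAG ratio in pepper:tomato as labelled was 0.96 as deposited and 2.51 after rescaling. As labelled and deposited, none of the tomato genes passed 2-fold from 1 to 3 DAG in pepper:tomato, where 52.1% of all tomato genes did, and both were higher in tomato:pepper, against 6.29%. When exchanged, both were higher in pepper:tomato as deposited, against 28.2%, and none passed 2-fold in tomato:pepper, where 10.9% did.

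CA02g00820 stood at 37.4 FPKM in the group labelled pepper:tomato at 3 DAG and 7.28 FPKM in that labelled tomato:pepper. As labelled, its 3 over 1 DAG log2 ratios were 4.30 in pepper:tomato and −0.15 in tomato:pepper. When exchanged, they were 2.08 and 2.06, so that the gene was past 2-fold in both heterografts at 3 DAG as well as at 5 DAG. After rescaling the tomato:pepper ratio as labelled was −1.15, past 2-fold downward, and the exchanged ratios were 1.83 and 1.58. For CA12g22480 the levels were 2.26 and 5.59 FPKM, and the ratio in pepper:tomato was −4.69 as labelled and −3.67 when exchanged. Its lower level at 3 DAG in pepper:tomato therefore did not depend on the labels. In tomato:pepper its ratio was 0.35 as labelled and −0.67 when exchanged, within 2-fold as deposited. After rescaling it was −0.57 as labelled and −1.16, past 2-fold, when exchanged.

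CaLBD18 stood at 4.53 FPKM in the group labelled pepper:tomato at 3 DAG and was listed at 0 in that labelled tomato:pepper, so no fold is given against it. As labelled, its 3 over 1 DAG ratio in pepper:tomato was 2.02. When exchanged, that in tomato:pepper was 0.78. In the group where CaLBD18 was listed at 0, 34.3% of pepper genes were also listed at 0, against 33.7% in the other 3 DAG heterograft group. CaLBD25 stood at 2.87 and 7.34 FPKM, with 3 over 1 DAG ratios of −1.54 in pepper:tomato and 2.22 in tomato:pepper as labelled. When exchanged, these were −0.43 and 1.11. Centring took the labelled pepper:tomato ratio of CaLBD25 to −0.68, and rescaling took the exchanged tomato:pepper ratio to 0.90, both within 2-fold.

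As labelled, from 1 to 3 DAG in pepper:tomato 2 of the 4 pepper genes passed 2-fold upward and 2 downward, against 6.19% and 44.9% of pepper genes, whose median log2 ratio was −0.86. In tomato:pepper 1 was higher and 1, CaLBD18, lower, against 33.6% and 4.86%, with a median of 0.72. When exchanged, 1 was higher and 1 lower in pepper:tomato, against 8.06% and 31.6%, and 2 were higher in tomato:pepper, against 9.81%. From 3 to 5 DAG, 2 of the pepper genes were higher and 2 lower in pepper:tomato as labelled (37.2% and 5.34% of pepper genes) and none when exchanged (25.5% in either direction). In tomato:pepper 2 were higher as labelled (13%), of which CaLBD18 started from a value listed at 0, and 1 was higher and 1 lower when exchanged (5.25% and 7.55%). Of the tomato genes, SlLBD18 was higher from 3 to 5 DAG in pepper:tomato as labelled (9.93%) and both were lower in tomato:pepper (3.61%). When exchanged, none passed 2-fold in pepper:tomato (18.6% in either direction) and SlLBD18 was higher in tomato:pepper (9.31%).

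The heterografts were also compared with each other at each day. Pepper forms the scion of pepper:tomato and the stock of tomato:pepper, so this comparison sets pepper tissue above the cut against pepper tissue below it. The share of pepper RNA moves with it, and the median pepper gene was 1.10 higher on the log2 scale in pepper:tomato at 1 DAG and 0.77 higher at 5 DAG. As deposited, CA12g22480 was higher in pepper:tomato by a log2 ratio of 4.02 at 1 DAG, which is 19.9-fold in FPKM, and by 1.56 at 5 DAG. Centred on that shift, its ratios were 2.92 and 0.80, so that the 5 DAG call was lost. CaLBD25 had ratios of 2.65 and 0.54. CA02g00820 lay the other way, with −2.24 at 1 DAG and −1.75 at 5 DAG, and so did CaLBD18 with −1.24 and −0.75, the latter past 2-fold when centred (−1.52) or rescaled (−1.28). At 1 DAG, then, as deposited 2 of the pepper genes were higher in pepper:tomato and 2 lower, against 54.9% and 2.51% of pepper genes, and at 5 DAG 1 was higher and 1 lower, against 38.6% and 7.6%.

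At 3 DAG each of these pepper genes had the opposite sign as labelled, with ratios of 2.21 for CA02g00820, −1.02 for CA12g22480 and −1.11 for CaLBD25, and CaLBD18 was listed at 0 in tomato:pepper. There 2 were higher and 2 lower, against 8.67% and 20.4%, but after rescaling CA12g22480 and CaLBD25 were within 2-fold, at −0.59 and −0.65. The exchange reverses these signs by construction, so that they then matched those at 1 and 5 DAG. When exchanged, 2 were again higher and 2 lower, against 20.4% and 8.67%. The tomato genes stayed within 2-fold between the heterografts at 1 and 5 DAG as deposited. SlLBD4 had a ratio of −0.15 at 1 DAG and 0.71 at 5 DAG, and SlLBD18 one of 0.34 at 5 DAG, while 53.1% of tomato genes passed 2-fold at 1 DAG and 27% at 5 DAG. SlLBD18 was below 1 FPKM in both at 1 DAG. The median tomato gene was lower in pepper:tomato by −0.99 and −0.60 on the log2 scale, and after rescaling the 3 ratios were 1.53, 1.68 and 1.23. At 3 DAG both tomato genes were lower in pepper:tomato as labelled, with ratios of −2.53 for SlLBD18 and −1.35 for SlLBD4, against 10.6% of tomato genes.

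**Figure D4:**
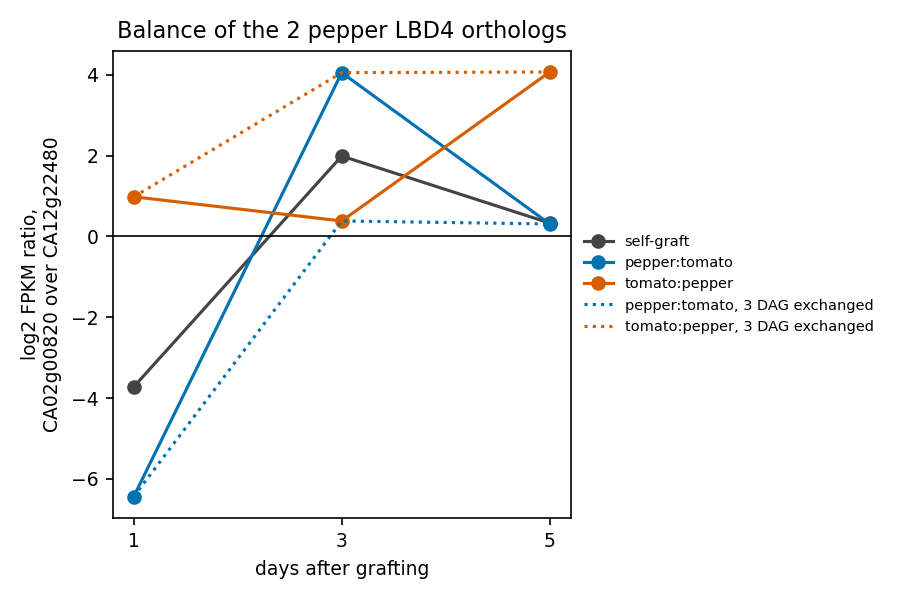
The vertical axis gives the log2 ratio of the FPKM of CA02g00820 over CA12g22480 within each group and the horizontal axis the days after grafting, for the pepper self-graft (grey), pepper:tomato (blue) and tomato:pepper (orange), with dotted lines for the 3 DAG groups exchanged. At 1 DAG the ratio was −3.72 in the self-graft, −6.44 in pepper:tomato and, on the other side of 0, 0.98 in tomato:pepper.

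The balance of the pepper LBD4 orthologs within each group set the heterografts on opposite sides at 1 DAG. In pepper:tomato CA12g22480 stood 86.7 times higher than CA02g00820 at 1 DAG, the same side as in the self-graft. In tomato:pepper CA02g00820 was already 1.97 times higher than CA12g22480 at 1 DAG, and it was 16.8 times higher at 5 DAG. In pepper:tomato the ratio at 5 DAG was 1.24, close to the 1.26 of the self-graft. At 3 DAG CA02g00820 was the more abundant ortholog in every graft, by 16.6 times in pepper:tomato and 1.30 times in tomato:pepper as labelled, and the other way round when exchanged. Reads that fit both orthologs of a pair, or a tomato and a pepper gene alike, could be split between them when aligned to the joined genomes, and the part of this in the values was not tested.

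A further 6 genes of the family were followed for context. Of these, Solyc11g045530 and Solyc12g100150 are tomato orthologs of LBD4 on the study's accession list. CA04g17930, CA06g02870, CA06g08920 and CA06g23650 are pepper genes that the study's table of regulators assigns to the LBD family, without a closer name, and which were chosen there for changing in these samples. Solyc11g045530 was close to SlLBD4 in the tomato self-graft, at 2.54, 8.85 and 11.3 FPKM, with log2 ratios of 1.47 for 3 over 1 DAG and 1.79 for 5 over 1 DAG. The ratios of this gene are as deposited and were not recomputed after rescaling. In the heterografts it went from 2.32 to 5.30 FPKM in pepper:tomato and from 6.40 to 5.78 FPKM in tomato:pepper between 1 and 5 DAG, within 2-fold in both. Solyc12g100150 did not exceed 0.344 FPKM in the self-graft and reached 1.23 FPKM only in pepper:tomato at 1 DAG.

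As deposited in the pepper self-graft, 3 of these 4 pepper genes were higher at 3 than at 1 DAG, against 16.5% of all pepper genes. This count was not recomputed after rescaling. That scaling took the median pepper log2 ratio from 0.03 to −0.67 and cost CaLBD18 its call at this interval. CA06g02870 stood at 1.17, 23.7 and 11.3 FPKM, a log2 ratio of 3.51 for 3 over 1 DAG that exceeded that of CA02g00820. CA06g23650 stood at 6.66, 27.1 and 18.1 FPKM and CA06g08920 at 2.41, 6.37 and 3.76 FPKM. CA04g17930 was the exception, at 110.0, 83.3 and 51.0 FPKM, with a log2 ratio of −1.09 for 5 over 1 DAG. As deposited, the self-graft maximum at 3 DAG was therefore found in 5 of the 8 pepper LBD genes followed, CaLBD18, CA02g00820, CA06g02870, CA06g08920 and CA06g23650. The share of all pepper genes with that maximum was not computed, and all 5 were picked by the study for changing in these samples. The count therefore does not show whether the LBD genes were unusual. The summed FPKM of this self-graft was also highest at 3 DAG, at 2.36e+06 against 1.35e+06 at 1 DAG and 1.59e+06 at 5 DAG. CaLBD18 and CA02g00820 kept the maximum after rescaling, which was not checked for the further genes.

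**Figure D5:**
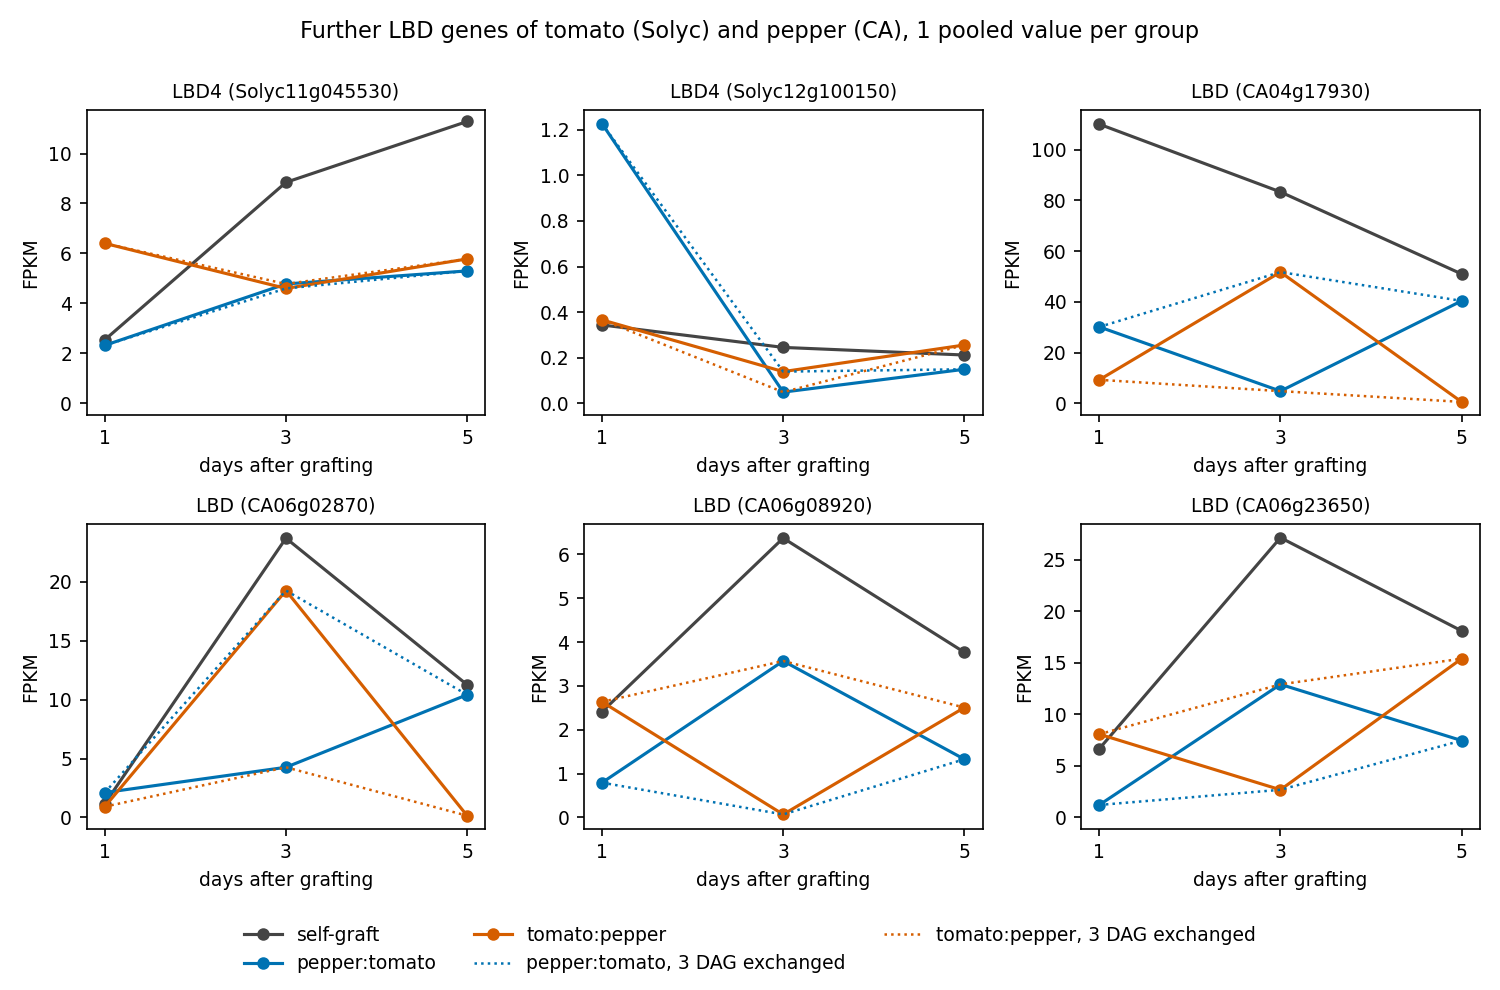
Each panel gives 1 further LBD gene, with days after grafting on the horizontal axis and pooled FPKM on the vertical axis, for the self-graft (grey), pepper:tomato (blue) and tomato:pepper (orange), and dotted lines for the 3 DAG heterograft groups exchanged. At 5 DAG CA04g17930 stood at 40.4 FPKM in pepper:tomato and 0.613 FPKM in tomato:pepper, and CA06g02870 at 10.4 and 0.149 FPKM.

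Between the heterografts, the 8 pepper LBD genes fell on 2 sides, a grouping noticed after their values were seen and not tested. CaLBD18, CA02g00820, CA06g08920 and CA06g23650 had lower values at both 1 and 5 DAG with pepper as scion (pepper:tomato) than with pepper as stock. For CA06g08920 the log2 ratios were −1.02 and −0.59, and for CA06g23650 −2.04 and −0.96. CA12g22480, CaLBD25, CA04g17930 and CA06g02870 had higher values in pepper:tomato at both days. For CA04g17930 the ratios were 1.60 and 4.68, and for CA06g02870 0.70 and 3.31. All 8 had the same sign at 1 and 5 DAG as deposited, 7 when each species was rescaled and 6 when centred on the median pepper gene. The exceptions were CaLBD25 at 5 DAG (−0.12 rescaled and −0.23 centred) and CA06g02870 at 1 DAG (−0.40 centred). The share of all pepper genes with the same sign at both days was not computed. As deposited, the median pepper gene was itself higher in pepper:tomato, by 1.10 at 1 DAG and 0.77 at 5 DAG on the log2 scale. At 3 DAG, as deposited, all 8 had the opposite sign as labelled and the same sign when exchanged. The exchange reverses every ratio between heterografts at 3 DAG by construction, so the exchanged signs only restate the labelled ones. When exchanged, 7 of 8 kept one sign over the 3 days after rescaling and 6 of 8 after centring, with the same exceptions. None of the 8 did so as labelled under any of the 3 scalings.

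The lists of cambium and xylem regulators show where the LBD genes stood in the self-grafts. Their calls are given as deposited and were not recomputed after rescaling. At 3 over 1 DAG that scaling took the median tomato log2 ratio from 0.06 to −0.55. The median pepper ratio went from 0.03 to −0.67. The cambium markers WOX4, KNAT1 and PXY were all above 1 FPKM in the self-grafts. WOX4, the homeobox regulator of cambium cells, stood at 15.1 to 20.8 FPKM in the tomato self-graft (Solyc04g078650) and 56.5 to 133 FPKM in the pepper self-graft (CA04g18420). KNAT1 stood at 46.8 to 54.9 FPKM in tomato (Solyc04g077210) and 63.5 to 86.3 FPKM in pepper (CA04g16610). The receptor gene PXY was lower, at 2.24 to 5.65 FPKM over its tomato orthologs and 6.84 to 23.2 FPKM over those of pepper. Of 24 tomato cambium genes, 22 were tested at 3 over 1 DAG and 2 were higher and 1 lower, with a median log2 ratio of 0.09 against 0.06 for all tomato genes, of which 12.5% were higher and 4.95% lower. The 2 were the TDIF peptide gene Solyc09g061410, which encodes a phloem-derived signal to the cambium and stood at 119, 290 and 283 FPKM, and the brassinosteroid response factor BES1 (Solyc12g089040), which went from 46.4 FPKM at 1 DAG to 128 FPKM at 3 DAG. Both calls are as deposited, and the scaling under which SlLBD18 lost its call at this interval was not run for them. At 5 over 1 DAG 2 of 23 were higher, against 6.72% of all tomato genes, the TDIF gene again and the receptor kinase gene ER (Solyc08g061560), which went from 0.790 to 2.97 FPKM.

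Of the 18 pepper cambium genes, 3 were lower and none was higher at 3 DAG, with a median of 0.04 against 0.03 for all pepper genes, of which 18.8% were lower and 16.5% higher. LHW (CA11g16160), which encodes a basic helix-loop-helix factor of vascular cells in A. thaliana, went from 194 to 19.0 FPKM and stood at 51.7 FPKM at 5 DAG, a course like that of CA12g22480. ER (CA08g03060) went from 8.88 to 3.26 FPKM at 3 DAG, a log2 ratio of −1.21. At 5 over 1 DAG 1 was higher, WOX4 (CA04g18420) with a log2 ratio of 1.22, and 1 lower, LHW with −1.89, against 8.75% and 8.64% of all pepper genes. Rescaling took the median pepper log2 ratio at 5 over 1 DAG from 0.03 to −0.18, and the WOX4 call was not recomputed under it.

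The xylem regulators were low. Of 6 tomato genes only NST1 (Solyc10g005010), a NAC factor of secondary wall formation, reached 1 FPKM in a comparison with 1 DAG, and it was higher at both later days, at 0.911, 2.90 and 5.51 FPKM. Of 5 pepper genes, 3 were tested at 3 over 1 DAG and none was higher, while NST1 (CA11g08290) was lower, at 1.28 and then 0.0789 FPKM. VND7 (CA06g14050), which encodes a NAC factor of vessel formation, stood at 2.93, 4.31 and 5.65 FPKM in the pepper self-graft, within 2-fold. NST2 (CA01g34750) was higher at 5 DAG, at 1.25 against 0.0198 FPKM at 1 DAG. The pepper calls of NST1 and NST2 each rest on a deposited value just above the 1 FPKM minimum. Xylem calls of both species were not recomputed after rescaling.

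The genes most like each LBD gene were sought among the 49 other listed genes of tomato or 44 of pepper, by Pearson's r of log2(FPKM + 1). Expression was centred within each graft and ran over 9 groups that share time points, with both genes of a pair from the same libraries. The r values describe the pooled groups and carry no test. SlLBD18 was nearest to VND6 (Solyc06g034340), with r = 0.93 as labelled and 0.92 when exchanged, although VND6 itself did not exceed 1.80 FPKM. SlLBD4 was nearest to the homeobox gene THOM1 (Solyc01g090460, an identifier that the accession list also gives to an XTH gene), with r = 0.96 and 0.95, and next to the TDIF gene Solyc09g061410, with r = 0.91 and 0.92. The share of all genes of the species with an r at least as high ranged from 0.0553% (THOM1 with SlLBD4) to 2.17% (LHW with CA12g22480) over the listed matches as labelled, and from 0.0778% (WRKY46 with CA12g22480) to 4.37% (NST1 with SlLBD18) when exchanged.

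CaLBD18 was nearest to CA06g08920, with r = 0.96 as labelled and 0.89 when exchanged. CA02g00820 was nearest to CA06g23650 as labelled (r = 0.95, and 0.93 when exchanged), followed by MYB86 (CA01g20220) with r = 0.92. When exchanged, BIN2/BIL1 (CA02g29760) came first with r = 0.96. CA12g22480 was nearest to WRKY46 (CA08g08240), with r = 0.97 and 0.98, and as labelled next to LHW (CA11g16160), with r = 0.93. CaLBD25 had looser matches that changed with the labels, WOX14 (CA02g19960, r = 0.85) and TMO6 (CA06g23590, r = 0.84) as labelled and PXY (CA03g15770, r = 0.80) when exchanged. Between the LBD4 orthologs of pepper, r was −0.94 as labelled and −0.85 when exchanged, and between SlLBD18 and SlLBD4 it was 0.85 and 0.80.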

How the data were processed

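Junction RNA was sequenced as poly(A) libraries, 4 per group in 12 groups, grouped by their titles. For the tomato self-grafts the organism label disagrees with the titles, which were followed. FPKM was made by the authors with TuxNet (fastq-mcf for trimming, HISAT2 for alignment, Cufflinks for quantification). The genomes were pepper CM334 and tomato Heinz with ITAG3.2 genes, joined for heterografts. The deposited FPKM is 1 pooled value per group, and the 3 tables were normalized separately. Columns of the authors' own comparisons (log2 fold changes and q-values) were not used. No count, depth or library value was at hand, so no interval or SD is given and no test was made.

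Log2 ratios of FPKM + 1 were computed for genes that reached 1 FPKM in either group, and called past 2-fold (an absolute log2 ratio of 1). The genes and lists were chosen with earlier results of these data known. Of the lists, named genes were the further LBD genes, the 2 genes per species, list and interval with the largest change against 1 DAG in the self-graft, and the 2 genes most like each LBD gene. All 101 identifiers were in the tables, and 0 of the 6 LBD identifiers were in the RefSeq gene table, so no sequence or position is given. Pseudocount, filter, threshold, scaling and the labels at 3 DAG were varied. Calling was tested on simulated data. Python 3.11.15, pandas 2.3.3, numpy 2.4.6 and matplotlib 3.10.9 were used.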

Additional observations from a re-analysis of the deposited data

Results flagged for a closer look

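In 6 cases an LBD gene passed 2-fold in opposite directions in 2 grafts over the same interval, each of them involving a heterograft at 3 DAG as labelled. None of these differences was tested here, where 1 pooled FPKM a group was used. From 3 to 5 DAG the log2 ratios in pepper:tomato were 1.65 for SlLBD18 and −1.68 for CA02g00820, and those in tomato:pepper −1.22 and 2.27. From 1 to 3 DAG CaLBD25 had a ratio of −1.54 in pepper:tomato, whereas it was 2.22 in tomato:pepper. CaLBD18 had a ratio of 2.02 in pepper:tomato and 1.72 in the pepper self-graft from 1 to 3 DAG, while it was listed at 0 in tomato:pepper at 3 DAG. From 3 to 5 DAG CaLBD18 had a ratio of −1.76 in pepper:tomato, whereas its tomato:pepper level went from 0 to 1.75 FPKM. With the 3 DAG groups exchanged, SlLBD18 stood at −0.88 and 1.32 from 3 to 5 DAG, CA02g00820 at 0.53 and 0.06, and CaLBD25 at −0.43 and 1.11 from 1 to 3 DAG, so that none of these 3 was past 2-fold in both directions.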

How the results depend on the processing

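No paired analysis was possible because the tables hold 1 pooled value per group and no value per replicate, and for the same reason no replicate could be left out. As reported, 10 of 18 gene-by-interval pairs passed 2-fold in the self-grafts, 13 in pepper:tomato, 11 in tomato:pepper (2 of which rest on CaLBD18 listed at 0) and 12 of 18 gene-by-day pairs between the heterografts. With a pseudocount of 5 FPKM these were 6 in pepper:tomato, 5 in tomato:pepper and 6 between heterografts. At 4-fold they were 5, 5, 5 and 6 in the same order as reported. With the 3 DAG heterograft groups exchanged, 8 pairs passed in pepper:tomato, and with rescaling added 7 in pepper:tomato and 7 in tomato:pepper. Without the 3 DAG groups, an alternative chosen after seeing the data, 4 of 6 pairs passed in pepper:tomato, 3 of 6 in tomato:pepper and 6 of 12 between heterografts. A pseudocount of 0.1 FPKM, no filter, a filter at 5 FPKM, rescaling alone and centring alone kept these counts within 1.5 times. No share over all genes was computed for these pooled counts, so they do not show whether the LBD genes were unusual.

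Exchanging the 3 DAG groups reversed 10 called ratios, given here without and with rescaling, and the construction of the exchange fixes the sign of those between heterografts. From 3 to 5 DAG in pepper:tomato these were CA02g00820 at 0.53 and 0.85 and SlLBD18 at −0.88 and −0.22. In tomato:pepper they were SlLBD18 at 1.32 and 1.90 and SlLBD4 at 0.26 and 0.83 from 3 to 5 DAG, and SlLBD4 at −0.10 and −0.17 from 1 to 3 DAG. Between heterografts at 3 DAG they were CaLBD25 at 1.11 and 0.65, CA02g00820 at −2.21 and −2.73, CA12g22480 at 1.02 and 0.59, SlLBD18 at 2.53 and 3.35 and SlLBD4 at 1.35 and 2.11. No called ratio reversed under the other alternatives.

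Depth is unknown and limits what the lowest values, such as those of SlLBD18 and CaLBD18 in the heterografts, can show.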
